A study of Mus with 4 samples.

Results

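The proteasome was followed through its constitutive genes, the subunits that every cell uses, with an assembly factor and an activator. The members are a list of 34 gene symbols, of which the platform annotation names 32, each by 1 probe set. The whole table names 19505 genes. Psmb5, the chymotrypsin-like catalytic subunit, and Adrm1, a ubiquitin receptor, have no entry in that annotation and were left out. The 32 measured genes comprise 7 of the alpha ring and 6 of the beta ring of the 20S core, 9 of the base and 8 of the lid of the 19S particle, the assembly factor Pomp and the activator Psme4.

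Expression was measured in subcutaneous tumors of Renca cells, a mouse renal adenocarcinoma line, on 4 Affymetrix arrays, 1 per group. The shNrf3-HFD and shCtrl-HFD groups are tumors from cells stably expressing a short hairpin RNA against Nrf3 or a control hairpin, in mice on a high-fat diet (HFD-60). The shNrf3-NC and shCtrl-NC groups are tumors from the same kinds of cells in mice on normal chow (CE-2). All hosts were male BALB/cCrSlc mice, 4 to 6 weeks old when bought, fed for 17 weeks before the cells were injected into the flank, and the tumors were taken after 2 weeks. How many tumors went into an array, and whether the hairpin cells are 1 clone, is not stated in the labels. With 1 array per group no difference between groups has a replicate check, and no single comparison has a test. Values are log2 levels made with the RMA method, and a difference of 1 is 2-fold. Members and all genes were counted at 1.5-fold (0.58 on the log2 scale). Levels of different probe sets cannot be set against each other, so each gene is compared with itself across arrays. In whole tumors, fewer cells of a type and less RNA per cell cannot be told apart.

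The proteasome degrades proteins tagged with ubiquitin. Substrates are bound and unfolded by the 19S particle, whose base is built around a ring of ATPases and whose lid removes the ubiquitin, and are cut inside the 20S core, a barrel of stacked alpha and beta rings. When proteasome activity falls, the transcription factor NRF1 (Nfe2l1) raises the subunit genes together. NRF3 (Nfe2l3) is its relative, and in human cancer cells it has been reported to raise POMP, the chaperone of core assembly.

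The arrays differed in overall signal, and shCtrl-NC was the weakest. Rows marked as positive controls had medians of 9.57 in shNrf3-HFD, 9.75 in shCtrl-HFD, 9.70 in shNrf3-NC and 9.19 in shCtrl-NC, while negative control medians lay between 5.35 and 5.39. The gap between both kinds of control was 4.19, 4.39 and 4.35 in the first 3 of these arrays and 3.80 in shCtrl-NC. Of the genes, 10021 had a mean level above the median of the table's rows (5.73), and their median difference was -0.14 for shNrf3 minus shCtrl in HFD, 0.14 for the same in NC, -0.03 for HFD minus NC with shNrf3 and 0.26 with shCtrl. These medians stand beside the values of the proteasome genes below. Nfe2l3, the hairpin's target, read 6.05 in shNrf3-HFD, 5.77 in shCtrl-HFD, 5.56 in shNrf3-NC and 6.22 in shCtrl-NC. It differed by 0.28 in HFD, higher on the array labelled shNrf3, and by -0.66 in NC. Negative control rows reached 8.97 to 9.35 at their 95th percentile, so these differences cannot show whether Nfe2l3 followed the labels. Groups are called by their labels, and each direction below rests on them. Of the tumor cell markers Krt8 and Krt18 read 14.32 or more on every array, whereas the renal markers Pax2, Pax8, Cdh16 and Lhx1 read below the negative control median on all 4.

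Proteasome genes read lowest on the shCtrl-NC array and much alike on the other 3. Of the 32 members 26 (81.2%) had their lowest level of the 4 arrays in shCtrl-NC, as did 41.6% of all genes past the filter and 49.3% of the 2708 genes whose mean level lies in the range of the members (10.27 to 15.39). All 13 measured core subunits had their lowest level there, against 12 of 17 subunits of the 19S particle. The shNrf3-HFD, shCtrl-HFD and shNrf3-NC levels lay within 1.5-fold of each other for 24 members, against 50.4% of all genes past the filter and 58.1% of genes in the same level range. For 14 members (43.8%) shCtrl-NC lay at least 1.5-fold below each of the other 3 arrays, against 13.9% of all genes and 17.7% of genes in that range. All 128 readings of the members exceeded the 95th percentile of negative controls on their own array. Under other scalings between arrays the counts of low shCtrl-NC levels were smaller. After cyclic loess between arrays 19 members were lowest in shCtrl-NC (59.4%, against 31.7% in the level range), after quantile normalization 20 (62.5% against 31.9%) and after subtracting the array medians 23 (71.9% against 35.0%). After each of these 3 scalings 5 members, Psma3, Psma7, Psmb2, Psmc4 and Psmd14, lay at least 1.5-fold below each of the other arrays in shCtrl-NC, in place of 14, against 9.23%, 9.68% and 10.9% of genes in the level range. The other 3 arrays lay within 1.5-fold of each other for 22, 23 and 22 members, against 59.3%, 58.8% and 58.0%. The heat map of levels shows the values as deposited.

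**Figure D1:**
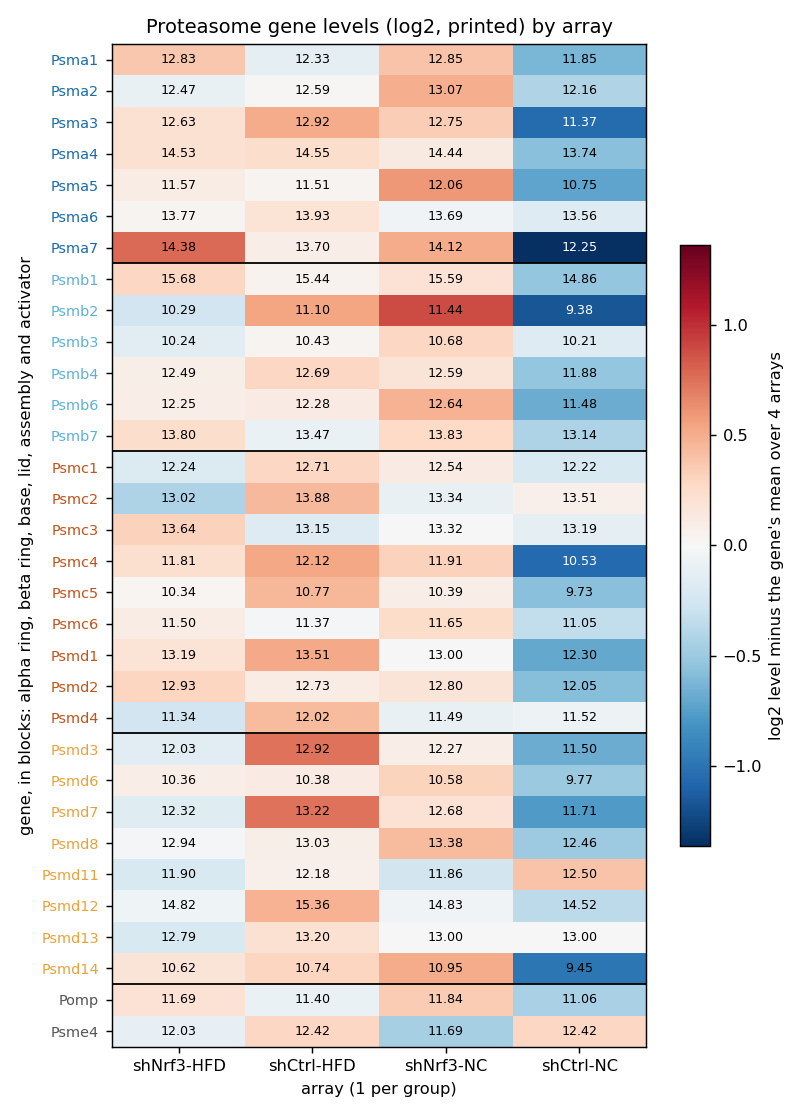
Log2 levels of the 32 measured proteasome genes (rows, in blocks by role) on the 4 arrays (columns, 1 array per group), with the level printed and the colour giving its distance from the gene's mean over the 4 arrays. The shCtrl-NC column is blue for most genes, 26 of which have their lowest level there, while Psmd11 and Psme4 are not low in it.

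The alpha ring forms the outer rings of the core and gates the entry of substrates. Psma1 read 12.83 in shNrf3-HFD, 12.33 in shCtrl-HFD, 12.85 in shNrf3-NC and 11.85 in shCtrl-NC. Psma2 read 12.47 in shNrf3-HFD, 12.59 in shCtrl-HFD, 13.07 in shNrf3-NC and 12.16 in shCtrl-NC. Psma3 read 12.63 in shNrf3-HFD, 12.92 in shCtrl-HFD, 12.75 in shNrf3-NC and 11.37 in shCtrl-NC. In each of these genes shCtrl-NC was lowest, and by most in Psma3, which differed there by -1.40 from the mean of the other 3 arrays. Psma4 read 14.53 in shNrf3-HFD, 14.55 in shCtrl-HFD, 14.44 in shNrf3-NC and 13.74 in shCtrl-NC. Psma5 read 11.57 in shNrf3-HFD, 11.51 in shCtrl-HFD, 12.06 in shNrf3-NC and 10.75 in shCtrl-NC. Psma6 read 13.77 in shNrf3-HFD, 13.93 in shCtrl-HFD, 13.69 in shNrf3-NC and 13.56 in shCtrl-NC. Psma6 varied least of the ring, over 0.37 in all. Psma7 read 14.38 in shNrf3-HFD, 13.70 in shCtrl-HFD, 14.12 in shNrf3-NC and 12.25 in shCtrl-NC. Psma7 had the widest range of any member (2.13), with shNrf3-HFD highest and shCtrl-NC lowest. Its tissue form Psma8, known from the testis, read below the negative control median on all 4 arrays.

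The beta ring holds the catalytic sites. Psmb6 is the caspase-like and Psmb7 the trypsin-like subunit, and both are exchanged for other subunits in the immunoproteasome. Psmb6 read 12.25 in shNrf3-HFD, 12.28 in shCtrl-HFD, 12.64 in shNrf3-NC and 11.48 in shCtrl-NC. Psmb7 read 13.80 in shNrf3-HFD, 13.47 in shCtrl-HFD, 13.83 in shNrf3-NC and 13.14 in shCtrl-NC. In both genes shNrf3-NC was highest and shCtrl-NC lowest. The other measured beta subunits have no catalytic site of their own. Psmb1 read 15.68 in shNrf3-HFD, 15.44 in shCtrl-HFD, 15.59 in shNrf3-NC and 14.86 in shCtrl-NC. Psmb2 read 10.29 in shNrf3-HFD, 11.10 in shCtrl-HFD, 11.44 in shNrf3-NC and 9.38 in shCtrl-NC. Psmb3 read 10.24 in shNrf3-HFD, 10.43 in shCtrl-HFD, 10.68 in shNrf3-NC and 10.21 in shCtrl-NC. Psmb2 stands apart among these, with a difference of shNrf3 minus shCtrl of 2.06 in NC and -0.80 in HFD. Psmb4 read 12.49 in shNrf3-HFD, 12.69 in shCtrl-HFD, 12.59 in shNrf3-NC and 11.88 in shCtrl-NC. It was lowest in shCtrl-NC, with the other 3 arrays within 0.20 of each other.

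The base contains the ATPases Psmc1 to Psmc6, which unfold substrates and open the core. Psmc1 read 12.24 in shNrf3-HFD, 12.71 in shCtrl-HFD, 12.54 in shNrf3-NC and 12.22 in shCtrl-NC. Psmc2 read 13.02 in shNrf3-HFD, 13.88 in shCtrl-HFD, 13.34 in shNrf3-NC and 13.51 in shCtrl-NC. Psmc3 read 13.64 in shNrf3-HFD, 13.15 in shCtrl-HFD, 13.32 in shNrf3-NC and 13.19 in shCtrl-NC. Psmc2 was lowest in shNrf3-HFD and Psmc3 in shCtrl-HFD, and the distance of shCtrl-NC from the mean of the other 3 arrays was 0.10 in Psmc2 and -0.17 in Psmc3. Psmc4 read 11.81 in shNrf3-HFD, 12.12 in shCtrl-HFD, 11.91 in shNrf3-NC and 10.53 in shCtrl-NC. Psmc5 read 10.34 in shNrf3-HFD, 10.77 in shCtrl-HFD, 10.39 in shNrf3-NC and 9.73 in shCtrl-NC. Psmc6 read 11.50 in shNrf3-HFD, 11.37 in shCtrl-HFD, 11.65 in shNrf3-NC and 11.05 in shCtrl-NC. All 3 were lowest in shCtrl-NC, and Psmc4 differed there by -1.42 from the mean of the others. The large scaffold subunits of the base followed the same order of arrays at the low end. Psmd1 read 13.19 in shNrf3-HFD, 13.51 in shCtrl-HFD, 13.00 in shNrf3-NC and 12.30 in shCtrl-NC. Psmd2 read 12.93 in shNrf3-HFD, 12.73 in shCtrl-HFD, 12.80 in shNrf3-NC and 12.05 in shCtrl-NC. Psmd4 is a ubiquitin receptor of the proteasome. Psmd4 read 11.34 in shNrf3-HFD, 12.02 in shCtrl-HFD, 11.49 in shNrf3-NC and 11.52 in shCtrl-NC. It was highest in shCtrl-HFD and lowest in shNrf3-HFD.

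The lid carries Psmd14, the deubiquitinase that strips ubiquitin chains from substrates, and Psmd7, its partner subunit. Psmd14 read 10.62 in shNrf3-HFD, 10.74 in shCtrl-HFD, 10.95 in shNrf3-NC and 9.45 in shCtrl-NC. Psmd7 read 12.32 in shNrf3-HFD, 13.22 in shCtrl-HFD, 12.68 in shNrf3-NC and 11.71 in shCtrl-NC. Both were lowest in shCtrl-NC, but Psmd7 was highest in shCtrl-HFD and Psmd14 in shNrf3-NC. The remaining lid subunits are structural. Psmd3 read 12.03 in shNrf3-HFD, 12.92 in shCtrl-HFD, 12.27 in shNrf3-NC and 11.50 in shCtrl-NC. Psmd6 read 10.36 in shNrf3-HFD, 10.38 in shCtrl-HFD, 10.58 in shNrf3-NC and 9.77 in shCtrl-NC. Psmd8 read 12.94 in shNrf3-HFD, 13.03 in shCtrl-HFD, 13.38 in shNrf3-NC and 12.46 in shCtrl-NC. These were also lowest in shCtrl-NC. Psmd12 read 14.82 in shNrf3-HFD, 15.36 in shCtrl-HFD, 14.83 in shNrf3-NC and 14.52 in shCtrl-NC. Psmd13 read 12.79 in shNrf3-HFD, 13.20 in shCtrl-HFD, 13.00 in shNrf3-NC and 13.00 in shCtrl-NC. Psmd11 read 11.90 in shNrf3-HFD, 12.18 in shCtrl-HFD, 11.86 in shNrf3-NC and 12.50 in shCtrl-NC. Psmd11 ran the other way, with shCtrl-NC highest and 0.52 above the mean of the other arrays, and Psmd13 varied over 0.41 only.

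Pomp helps the beta subunits join the core and is degraded by the first finished proteasome. Pomp read 11.69 in shNrf3-HFD, 11.40 in shCtrl-HFD, 11.84 in shNrf3-NC and 11.06 in shCtrl-NC. Its knockdown difference was 0.29 in HFD and 0.78 in NC, so it was higher on the arrays labelled shNrf3 in both diets, by 1.22-fold and 1.72-fold. After scaling the NC difference lay between 0.49 and 0.58 and the HFD difference between 0.36 and 0.50. Psme4, also called PA200, is a nuclear activator that caps the core. Psme4 read 12.03 in shNrf3-HFD, 12.42 in shCtrl-HFD, 11.69 in shNrf3-NC and 12.42 in shCtrl-NC. It was lower in shNrf3-NC than in shCtrl-NC, by -0.74 on the log2 scale, and equal in shCtrl-HFD and shCtrl-NC to 2 decimals.

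In HFD, shNrf3 minus shCtrl differences of the proteasome genes lay mostly within 1.5-fold and about the median of all genes. The median over the 32 members was -0.17, against -0.14 over all genes past the filter and -0.14 over genes in the same level range. Of the members 1 was 1.5-fold or more higher (9.12% of all genes were, 6.13% in the level range) and 5 were lower (20.8% and 18.8%). After quantile normalization and after centring the median was 0.002 and 0.04, so its sign turns with the scaling. The 13 core genes had a median of -0.03, with 8 above the median of all genes, and the 17 genes of the 19S particle a median of -0.33, with 6 above it. No lid gene lay above 0 as deposited, against 3908 of 10021 genes past the filter and 1001 of 2708 in the level range. Of the 8 lid genes 3, Psmd6, Psmd8 and Psmd14, lay above the median of all genes. Under other scalings these reached up to 0.19, 0.12 and 0.09. The difference between the particles was not tested. Psma7 was the gene higher by 1.5-fold (0.68), and Psma1 (0.50) and Psmc3 (0.49) came next. Lowest were the lid genes Psmd7 (-0.90) and Psmd3 (-0.89) and the ATPase Psmc2 (-0.86), followed by Psmb2 (-0.80) and Psmd4 (-0.69). Psma7, Psmb2, Psmc2, Psmd3 and Psmd7 were past 1.5-fold under each of the 5 other scalings, and Psmd4 was not.

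In NC, the same comparison gave higher levels on the array labelled shNrf3. The median over the members was 0.72 (1.64-fold), against 0.14 over all genes past the filter and 0.22 over genes in the level range. Of the 32 members 22 were 1.5-fold or more higher (26.8% of all genes were, 31.0% in the level range), 2 were lower (13.5% and 10.3%) and 8 lay within 1.5-fold. Core genes had a median of 0.91, with 11 of 13 higher and 0 lower, and genes of the 19S particle a median of 0.66, with 10 of 17 higher and 1 lower. Psmb2 (4.17-fold), Psma7 (3.67-fold) and Psmd14 (2.83-fold) had the largest differences, and on the log2 scale Psme4 (-0.74), Psmd11 (-0.65) and Psmc2 (-0.17) were lowest. With cyclic loess, quantile or centred values 12 members were 1.5-fold or more higher, against 21.8%, 20.3% and 23.2% of genes in the level range, and the medians were 0.45, 0.43 and 0.51. Counted from the positive control rows, whose own median difference was 0.30, 11 members were higher, against 20.1% of genes in the level range, and the median was 0.42. The 11 genes past 1.5-fold under all 6 scalings were Psma1, Psma2, Psma3, Psma5, Psma7, Psmb2, Psmb6, Psmc4, Psmd7, Psmd8 and Psmd14. Pomp was not among them.

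**Figure D2:**
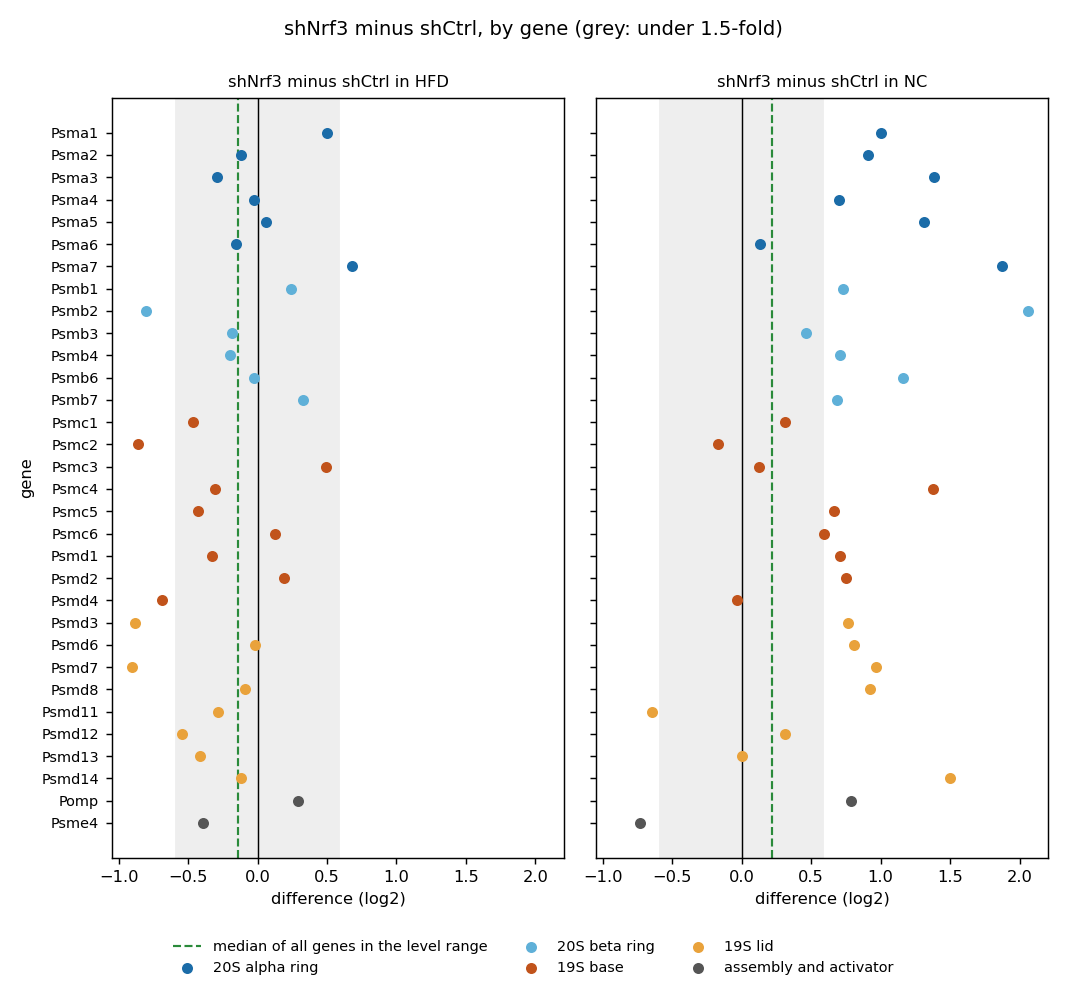
Differences of shNrf3 minus shCtrl on the log2 scale (x axis) for each proteasome gene (y axis, coloured by role), in HFD on the left and in NC on the right, with 1 array per group and no error bars. The grey band is under 1.5-fold and the dashed line is the median of all genes in the same level range (-0.14 in HFD and 0.22 in NC). In NC 22 of 32 genes lie to the right of the band, and in HFD 1 does, as deposited.

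By both diets, 18 members (56.2%) were within 1.5-fold in HFD and higher in NC, against 18.7% of all genes and 22.7% of genes in the level range. Psma7 was higher in both diets, as were 3.06% of all genes and 3.36% in the level range. Psmb2, Psmd3 and Psmd7 were lower in HFD and higher in NC (5.10% and 4.99%). Another 6 members (18.8%), namely Psma6, Psmb3, Psmc1, Psmc3, Psmd12 and Psmd13, lay within 1.5-fold in both (43.0% and 45.9%). Under each of the 5 other scalings 8 members were within 1.5-fold in HFD and higher in NC, against 14.1% to 16.6% of genes in the level range, and 15 or 16 lay within 1.5-fold in both, against 46.3% to 47.0%. The 7 genes in the first group under all 6 scalings were Psma2, Psma3, Psma5, Psmb6, Psmc4, Psmd8 and Psmd14. Psmd3 was no longer higher in NC under any of the 5, with differences between 0.47 and 0.56. The construct by diet difference, HFD knockdown difference less the NC one, had a median of -0.80 over the members, against -0.30 over all genes and -0.39 in the level range. It was 1.5-fold or more below 0 for 21 members (37.2% of all genes, 39.5% in the level range) and above 0 for 0 (13.8% and 7.94%). The first of these counts was 11 to 13 under the 5 other scalings, against 21.9% to 23.9% of genes in the level range. After quantile normalization the median was -0.28 and after cyclic loess -0.38. The largest were those of Psmb2 (-2.86), Psmd7 (-1.87) and Psmc4 (-1.68), and Psmc3 (0.37), Psmd11 (0.36) and Psme4 (0.34) were the members above 0. The differences in HFD and NC use separate arrays, and over the 32 members their Pearson's r was 0.22 and Spearman's rho 0.25. Across the 2708 genes of the level range both were 0.19. These are descriptions across genes, which share their libraries and are not independent replicates.

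Between diets, the tumors with shNrf3 had nearly the same proteasome levels. HFD minus NC with shNrf3 had a median of -0.14 over the members, against -0.03 over all genes and over genes in the level range. Of the members 30 lay within 1.5-fold, 0 were higher (8.84% of all genes, 4.84% in the level range) and 2 were lower (14.4% and 12.0%). The lower genes were Psmb2 (-1.15) and Psma2 (-0.60), and Psma5 (-0.50) came next. Psmb2 alone was past 1.5-fold under every scaling. At the upper end stood Psme4 (0.34), Psmc3 (0.32) and Psma7 (0.26).

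With shCtrl, HFD minus NC had a median of 0.59 (1.51-fold), against 0.26 over all genes and 0.34 in the level range. Of the members 16 were 1.5-fold or more higher (31.2% of all genes, 34.2% in the level range) and 0 were lower (10.7% and 5.32%). The largest were Psmb2 (1.72, 3.29-fold), Psmc4 (1.59, 3-fold) and Psma3 (1.55, 2.92-fold), followed by Psmd7 (1.51) and Psma7 (1.45). Psmd11 (-0.32) and Psmc3 (-0.05) were the members below 0, and Psme4 was level. After cyclic loess, quantile normalization or centring 9 members were higher, against 16.8%, 18.2% and 18.6% in the level range, with medians of 0.23, 0.26 and 0.28. The 9 genes past 1.5-fold under all 6 scalings were Psma3, Psma7, Psmb2, Psmc4, Psmc5, Psmd1, Psmd3, Psmd7 and Psmd14. This comparison and the knockdown comparison in NC share the shCtrl-NC array, so both carry its level, and they do not bear on each other as separate evidence.

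**Figure D3:**
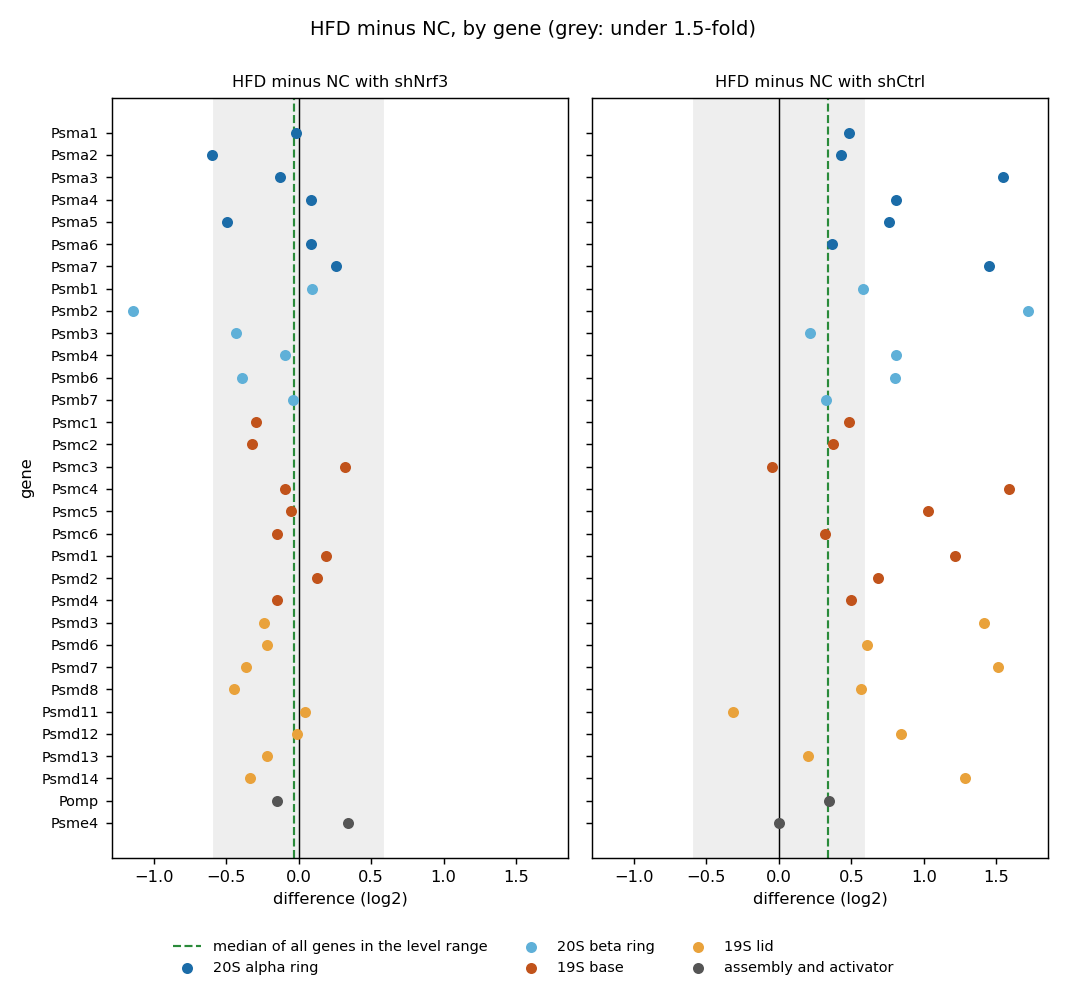
Differences of HFD minus NC on the log2 scale (x axis) for each proteasome gene (y axis, coloured by role), with shNrf3 on the left and shCtrl on the right, with 1 array per group and no error bars. The grey band is under 1.5-fold and the dashed line is the median of all genes in the same level range (-0.03 and 0.34). With shNrf3 30 of 32 genes lie in the band, and with shCtrl 16 lie to the right of it, as deposited.

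Since shCtrl-NC was weak for genes at these levels in general, the differences were set beside level. Among all genes with a mean level from 12 to 13, the median difference was 0.22 in NC for the knockdown and 0.32 for diet with shCtrl, against -0.16 and -0.03 in the comparisons without that array. The proteasome median lay 0.50 above that of its level range in the NC knockdown comparison and 0.26 above it in the diet comparison with shCtrl. In the comparisons without shCtrl-NC its distance from that median was -0.03 for the knockdown in HFD and -0.10 for diet with shNrf3. The median of the construct difference averaged over diets was 0.35 on all 4 arrays and -0.17 without shCtrl-NC or without shNrf3-NC, where HFD alone is left. That of the diet difference averaged over constructs was 0.21 on all 4 arrays -0.14 without shCtrl-NC and 0.59 without shNrf3-NC. Tumor and array cannot be told apart with 1 array in the group.

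**Figure D4:**
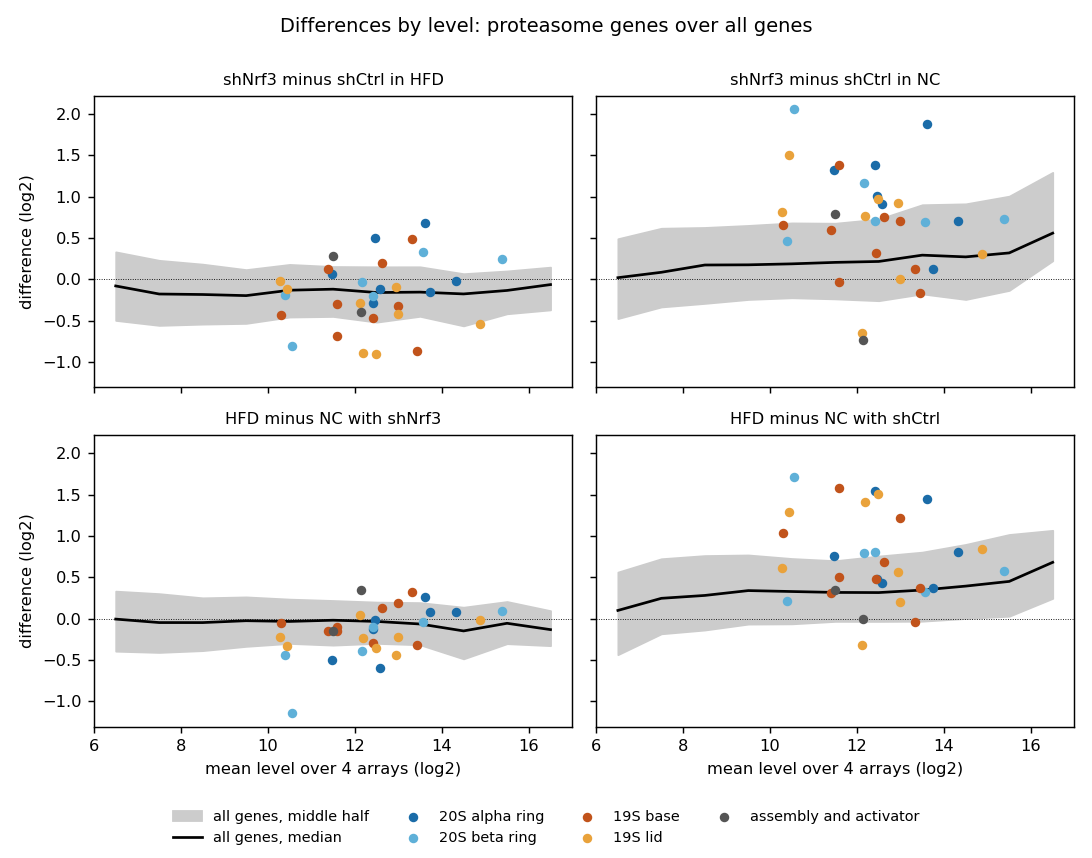
Difference on the log2 scale (y axis) against the mean level over the 4 arrays (x axis) for the 4 comparisons, with the median of all genes in steps of 1 in level (line), their middle 50% (grey) and the 32 proteasome genes (points, coloured by role). In the panels that use shCtrl-NC, on the right, the line itself lies above 0 and most points lie above the line, and in those on the left the points lie about the line.

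A limma fit with additive terms for construct and diet was run over all 10021 genes. Its residual is the construct by diet interaction, with 1 degree of freedom per gene. The error of each gene is this residual variance, drawn by limma towards a variance shared by all genes. With 1 array per group this fit says nothing of the spread between tumors. It called 0 of the 32 members for construct at an adjusted p of 0.05 (0.00% of all genes) and 0 for diet (0.00%). At an unadjusted p under 0.05 this limma fit had 1 member for construct (4.46% of all genes) and 0 for diet (2.91%). That member was Psma7, with a construct difference of 1.28 ± 0.44 (SE, unadjusted p = 0.0248, adjusted p = 0.961 in limma), higher on both arrays labelled shNrf3. Over the 7 limma fits run its adjusted p lay between 0.377 (after centring) and 1, and 0 members were called in any of them.

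Beside the subunits, 3 lists of pathway genes were measured, and many of their genes read within the range of the negative controls. Counts at 1.5-fold stand beside shares of all genes past the filter. The share higher was 26.8% for the NC knockdown difference and 9.12% for the HFD knockdown difference. For diet it was 8.84% with shNrf3 and 31.2% with shCtrl. Shares lower were, in this order, 13.5%, 20.8%, 14.4% and 10.7%. No count of these lists was tested against them. Of the other proteasome genes, assembly chaperones, regulators and tissue forms, 13 of 14 were measured, of which 7, 8, 8 and 6 exceeded the 95th percentile of negative controls in shNrf3-HFD, shCtrl-HFD, shNrf3-NC and shCtrl-NC. Their median was 0.11 in NC, 3 higher and 3 lower, and the count higher lies near the share of all genes. The inhibitor gene Psmf1 was higher (0.67), as were the chaperone genes Psmd5 and Psmg4. Psmd5 read 9.05 in shNrf3-HFD, 9.90 in shCtrl-HFD, 9.88 in shNrf3-NC and 8.18 in shCtrl-NC, and exceeded that percentile on 2 arrays, shCtrl-HFD and shNrf3-NC. Psmg4 exceeded it on 0 of 4 arrays, so no size is given for either. Psmg1, which pairs with Psmg2 in assembly of the alpha ring, was lower (-0.86), and the other lower members, Psma8 and Psmb11, read below the negative control median on all arrays. In HFD 0 were higher and 4 lower (median -0.38), namely Psmd5, Psmd9, Psma8 and the nuclear activator gene Psme3 (-0.93). Of these Psme3 alone exceeded the 95th percentile of negative controls on all 4 arrays, and Psmd9 and Psma8 did on 0. For diet this list had a median of -0.09 with shNrf3 (1 higher and 1 lower) and of 0.37 with shCtrl (4 higher and 1 lower). The 4 of 13 higher with shCtrl also lie near the share of all genes. The HFD median of this list is the value of Psmb11, and both diet medians are those of Psmd9. These 2 genes exceeded that percentile on 0 arrays, so these medians are not fold changes. Psmd5 is known to hold ATPases of the base before assembly. The ubiquitin list, 8 of 14 measured, had medians of -0.49 in HFD (0 higher and 3 lower) and -0.11 in NC (0 higher and 2 lower). Its diet medians were 0.07 with shNrf3 (1 higher and 2 lower) and 0.37 with shCtrl (2 higher and 0 lower). The ligase gene Ube3c differed by -1.45 in NC. The shuttle factor genes Ubqln2 and Ubqln4 exceeded the 95th percentile of negative controls on 0 arrays, and the other 6 genes on all 4. The last list holds Nfe2l1, Nfe2l3 and genes whose products act on NRF1 and NRF3, of which 6 of 7 were measured. On each array 3 exceeded that percentile, and the medians were -0.05 in HFD and -0.08 in NC (0 higher and 1 lower in each). The lower gene was Nfe2l1 in HFD and Nfe2l3 in NC, and Nfe2l3 exceeded that percentile on 0 arrays. Diet medians of this list were -0.02 with shNrf3 (1 higher and 0 lower) and 0.20 with shCtrl (0 and 0). With 3 of 6 genes above that percentile, the medians of this list are not fold changes. Nfe2l1 read 13.16 in shNrf3-HFD, 13.89 in shCtrl-HFD, 13.32 in shNrf3-NC and 13.37 in shCtrl-NC. Nfe2l1 was thus lower in shNrf3-HFD than in shCtrl-HFD (-0.74) and level in NC (-0.05).

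The immunoproteasome genes Psmb8, Psmb9 and Psmb10 and the PA28 activator genes Psme1 and Psme2, which interferon-gamma raises, were measured as a list of 5. They had medians of 0.34 in HFD and 1.91 in NC for the knockdown, and of -0.35 with shNrf3 and 1.07 with shCtrl for diet, and all 5 were lowest in shCtrl-NC. Psmb9 read 10.39 in shNrf3-HFD, 10.24 in shCtrl-HFD, 12.39 in shNrf3-NC and 8.25 in shCtrl-NC. The shCtrl-NC reading lies below the 95th percentile of negative controls there (9.35), so no size is given for comparisons that use it, and the other 4 genes exceeded it on all arrays. The NC median of this list is above that of the subunits, a difference that was not tested.

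Markers of other cells also differed between these arrays. Of all genes past the filter, 26.8% were 1.5-fold or more higher and 13.5% lower for the knockdown in NC. In HFD these shares were 9.12% and 20.8%. For diet they were 8.84% and 14.4% with shNrf3, and 31.2% and 10.7% with shCtrl. Some marker counts lie near these shares, such as 3 of 8 T cell markers in NC. Both comparisons that use shCtrl-NC carry its weak signal. In NC 9 of 9 measured macrophage and monocyte markers were 1.5-fold or more higher on the array labelled shNrf3 (median 1.47), as were 9 of 10 skeletal muscle markers (1.98), 7 of 9 adipocyte markers (1.21) and 3 of 8 T cell markers (0.37), while 4 of 9 fibroblast markers were lower (-0.51). In the order shNrf3-HFD, shCtrl-HFD, shNrf3-NC and shCtrl-NC, the 95th percentile of negative controls was exceeded by 8, 8, 8 and 6 of 9 macrophage markers, 0, 1, 5 and 1 of 10 muscle markers, 2, 4, 5 and 2 of 9 adipocyte markers, 4, 8, 6 and 7 of 9 fibroblast markers and 0 of 8 T cell markers on any array. Medians of the muscle, adipocyte and T cell lists are therefore differences between readings mostly within the range of the negative controls, and are not fold changes. The knockdown medians of the macrophage and fibroblast lists are not fold changes either. They are the values of Adgre1 and Pdgfrb in HFD, and of Ccr2 and Thy1 in NC. Each of these genes read below that percentile on an array of its comparison. Mean levels of the macrophage markers were 11.85 in shNrf3-HFD, 11.21 in shCtrl-HFD, 12.02 in shNrf3-NC and 10.68 in shCtrl-NC. Those of the muscle markers were 5.60 in shNrf3-HFD, 6.29 in shCtrl-HFD, 8.89 in shNrf3-NC and 6.15 in shCtrl-NC. Adipocyte markers had means of 7.44 in shNrf3-HFD, 8.74 in shCtrl-HFD, 9.49 in shNrf3-NC and 7.80 in shCtrl-NC. In HFD 5 of 9 macrophage markers were higher (median 0.65), and 7 of 9 adipocyte markers (-1.33) and 8 of 9 fibroblast markers (-1.92) lower, as were 5 of 10 muscle markers (-0.53) and 2 of 8 T cell markers (-0.41), with the proteasome median at -0.17. In HFD minus NC with shNrf3 all 10 muscle markers were lower, with a median of -2.27, as were 6 of 9 adipocyte markers (-2.22, with 1 higher), all 8 T cell markers (-1.45), 7 of 9 fibroblast markers (-1.65) and 2 of 9 macrophage markers (-0.19, with 1 higher), against a proteasome median of -0.14. With shCtrl, muscle markers had a diet median of 0.09 (2 higher and 2 lower), adipocyte markers of 1.05 (7 of 9 higher) macrophage markers of 0.50 (4 higher and 1 lower), T cell markers of -0.54 (3 lower) and fibroblast markers of -0.32 (1 higher and 4 lower). The 10 epithelial and renal markers had medians of -0.37 in both knockdown comparisons, of 0.47 for diet with shNrf3 and of 0.38 with shCtrl. On each array 5 of these 10 exceeded the 95th percentile of negative controls and 4 read below the negative control median. These medians are therefore not fold changes either. Of the 5 that exceeded it, Epcam (-1.56), Krt18 (-0.71), Cdh1 (-0.64) and Krt8 (-0.10) were below 0 in NC and Vim (0.78) was above. The part of other cells in the proteasome values was not tested.

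**Figure D5:**
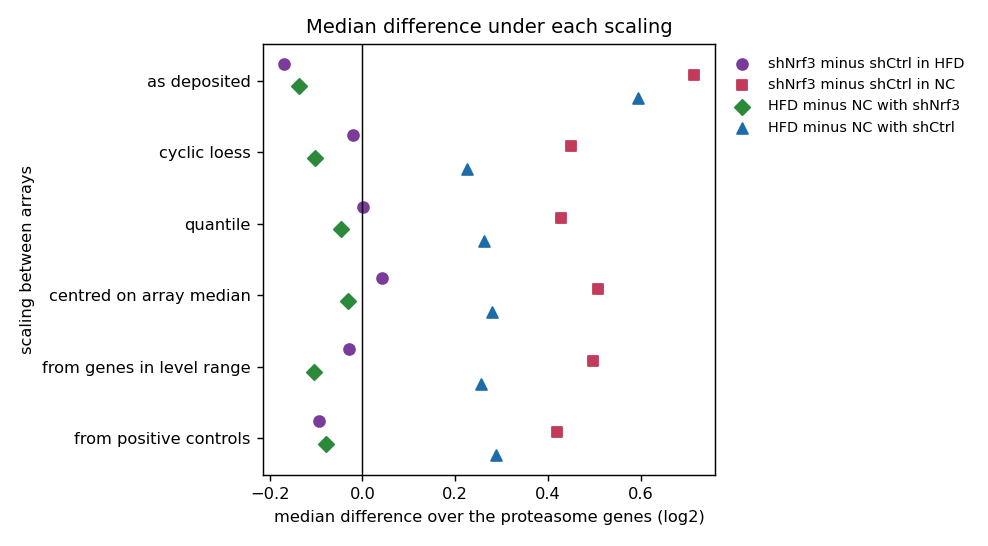
Median difference over the 32 proteasome genes on the log2 scale (x axis) for the 4 comparisons (marker shapes) under 6 scalings between arrays (y axis), with no error bars since each group has 1 array. Both comparisons that use shCtrl-NC lie above 0 under all 6 scalings, from 0.42 to 0.72 and from 0.23 to 0.59, and the knockdown median in HFD lies on either side of 0.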

How the data were processed

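RNA of 4 groups of tumors was measured on 4 Affymetrix arrays, from 100 ng of total RNA labelled with biotin, per the labels' protocols. The authors deposited log2 values made with Affymetrix Expression Console and RMA, per the submitters' processing notes. Their versions are not stated in these sources, nor is a genome build. An array has no depth of counts, and its precision is limited by the number of arrays.

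The table holds 28846 rows, 22206 of them transcript rows. Symbols came from the platform annotation (19572 probe sets with 1 symbol, 0 with several, 2634 transcript rows unnamed), and all 19572 Entrez IDs matched RefSeq genes of GRCm38.p6, used for names only, and no coordinates are given. For the 55 genes with several probe sets the highest mean was taken. Genes whose mean reached 5.73, the median of row means, formed the background (10021). Whether probe sets also read pseudogenes was not checked.

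Differences were taken between arrays, and an additive model was run in limma 3.58.1 (R 4.3.3) with Benjamini-Hochberg adjustment. The members and lists were chosen with earlier results of these data known. All members are named, pathway genes by their lists, and members that rank 1 to 3 from either end of a comparison are described further. Cell type lists covered epithelial and renal cells, skeletal muscle, adipocytes, macrophages and monocytes, T cells and fibroblasts. Alternatives were cyclic loess, quantile, centring, the level range, filters, probe sets, fold, mean and left-out arrays. Promoter sequences of members were not used here, so the motif search in the design was not run.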

Additional observations from a re-analysis of the deposited data

Results flagged for a closer look

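Of the 32 proteasome genes, 3 differed past 1.5-fold in opposite directions between shNrf3 and shCtrl in the 2 diets. Psmb2, a beta ring subunit, differed by -0.80 in HFD and 2.06 in NC. Psmd3, of the lid, differed by -0.89 in HFD and 0.77 in NC, and Psmd7, the lid partner of the deubiquitinase, by -0.90 in HFD and 0.97 in NC. Psmb2 also differed in opposite directions by diet, with HFD minus NC at -1.15 with shNrf3 and 1.72 with shCtrl. Psmb2 and Psmd7 ran past 1.5-fold in opposite directions under all 6 scalings, and so did Psmb2 by diet. The NC difference of Psmd3 lay between 0.47 and 0.56 under the 5 other scalings, so Psmd3 did not. With 1 array per group the difference between these effects was not tested. These 3 genes are 9.38% of the members, and 4.99% of genes in the same level range ran the same way. Under the 5 other scalings Psmb2 and Psmd7 did, against 2.03% to 2.73% of those genes. The share of genes with opposite directions by diet, as in Psmb2, was not counted. The shCtrl-NC array is the lowest array in each of the 3 genes.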

How the results depend on the processing

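Directions held for the median knockdown difference in NC, both diet medians and the construct by diet median under every scaling run. The median knockdown difference in HFD did not. It was -0.0205 after cyclic loess, 0.002 after quantile normalization, 0.0433 after centring and -0.0293 from the level range, against -0.17 as deposited. A value was taken as changed where it differed by 0.1 or more. Values are given in the order loess, quantile, centring, level range and positive control rows, the last chosen after seeing the data. The NC knockdown median was 0.45, 0.43, 0.51, 0.50 and 0.42, with 12, 12, 12, 12 and 11 members higher. Of genes in the level range 21.8%, 20.3%, 23.2%, 22.7% and 20.1% were higher. The diet median with shCtrl was 0.23, 0.26, 0.28, 0.26 and 0.29, with 9 members higher and 1 lower in each, and its mean was 0.72. The construct by diet median was -0.38, -0.28, -0.38, -0.42 and -0.43. The averaged diet median was 0.0432, 0.0985, 0.11, 0.0637 and 0.0915, against 0.21, and the averaged construct median 0.24 from the positive control rows, against 0.35. In HFD 3 members were higher after loess, quantile normalization, centring or from the level range. That is near the shares of genes in the level range, 10.7%, 10.5%, 13.0% and 10.3%. With shNrf3 the diet median was -0.032 after centring. Under each of the 5 scalings 1 member was lower, against 8.71% to 10.8% of genes in the level range. At 2-fold the knockdown counts were 0 higher and 0 lower in HFD (1.48% and 5.39% of genes in the level range) and 8 higher and 0 lower in NC (16.8% and 2.95%). The diet counts were 1 lower with shNrf3 (4.10%) and 9 higher with shCtrl (15.5%). The averaged construct median ran from -0.17 to -0.17 and the averaged diet median from -0.14 to 0.59 with shCtrl-NC or shNrf3-NC left out, shNrf3-NC being chosen after seeing the data for its muscle and fat markers. Dropping either leaves the HFD knockdown comparison alone and 1 diet comparison. The scalings remove the overall shift between arrays by construction, and the cause beyond that was not tested.

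Filters on level and the mean of several probe sets changed no difference, median or count of the members, all of which lie above both filters and have 1 probe set each. They moved the adjusted p of Psma7 for construct in limma, which was 1 with no filter, 0.869 with the stricter filter and 0.959 with mean probe sets, against 0.961. Of 640 values of single genes under the scalings, 493 changed by 0.1 or more and 147 did not, and 0 values past 1.5-fold changed sign. The limma fit called 0 genes of the whole table for construct and 0 for diet, against 27 and 11 after centring and 9 and 1 after loess, with 0 members among them. Scaling the counts of members by pattern over the arrays or both diets was chosen after seeing the data. No analysis of paired replicates was possible with 1 array per group, but the limma fit compares constructs within diet and diets within construct. All members exceed the 95th percentile of negative controls on every array. Signal over background limits Nfe2l3, the tissue forms, Ubqln2, Ubqln4, Psmg4, Psmd5 and Psmb9. It also limits Krt19, the renal markers, most muscle, adipocyte and T cell markers, and some macrophage and fibroblast markers.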
